A study of Mus musculus with 6 samples.

Results

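The 59 genes described here encode the Wnt ligands, their receptors and co-receptors, the secreted antagonists, the R-spondin axis and the first intracellular effectors of the pathway, chosen by gene symbol from the 22063 genes of the count table. They were read in 6 RNA-seq libraries of primary fibroblasts cultured from mouse heart. All cells carried floxed Tet3 alleles and all received TGF-β, which drives fibroblasts to become matrix-producing myofibroblasts. The GFP group (labelled Control, 3 libraries) received an adenovirus coding for green fluorescent protein, and the CRE group (labelled Tet3 knockout, 3 libraries) an adenovirus coding for Cre recombinase, which excises DNA between loxP sites in any cell it enters. The study states a C57BL/6J background for all its strains, and the age of the mice is not given in the sources used here. The study describes its replicates as biological, without saying whether the libraries of a group came from separate animals or separate cultures of the same cells, so a p-value measures only the spread between these libraries. No library of cells left without TGF-β was used here.

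Wnt proteins are secreted, lipid-modified signals that bind frizzled receptors. Together with the co-receptors LRP5 and LRP6 they stop the destruction complex, built on AXIN, from degrading β-catenin, which then acts with TCF and LEF factors on target genes, whereas WNT5A and WNT11 are best known for signalling that does not pass through β-catenin, often with ROR1 or ROR2. Secreted frizzled-related proteins (Sfrp genes and Frzb), Dickkopf proteins (Dkk genes) and WIF1 are extracellular inhibitors, and R-spondins, through LGR4, LGR5 and LGR6, keep the ubiquitin ligases ZNRF3 and RNF43 from removing frizzled receptors. In the heart, fibroblasts are a known source of Wnt ligands and antagonists. TET3, an enzyme that oxidises 5-methylcytosine in DNA, is the product of the targeted gene, and CRE was set against GFP to see which of these transcripts differ when Tet3 is reduced under TGF-β. No library of Cre-treated cells without floxed alleles was used here. Effects of Cre itself and of reduced Tet3 therefore cannot be told apart.

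Total counts were between 17002126 and 20343590 per library. Values are given as counts, as CPM (counts scaled to the TMM-adjusted library size) or as the deposited FPKM, which is also divided by transcript length and is the scale used to compare one gene with another. A count of 0 allows up to 3 counts, or between 0.156 and 0.187 CPM in a library, for counting error only. Tet3 was counted 1044, 965 and 1000 times in GFP and 642, 649 and 637 times in CRE, so that CRE held 60.8% of the GFP level in CPM (log2 fold change -0.72, SE 0.08, adjusted p = 5.4e-05 in edgeR's quasi-likelihood test). Fibroblast markers were abundant, at 55671.7 to 57546.6 summed CPM in GFP and 29975.2 to 32308.8 in CRE. Of the 12 listed, 11 were lower in CRE, among them Tcf21 (log2 fold change -1.80), Lum (-1.46) and Col3a1 (-1.25), and Thy1 did not pass the test. Among all tested genes, 25.7% were lower. The part of this shift in the lower members, such as Sfrp1, Frzb and Wnt5a, was not tested.

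Of the 59 genes, 3 (Wnt9b, Sfrp5 and Dkk4) had no count in any library, 37 had enough counts to be tested, and 29 reached a mean of 1 FPKM in at least 1 group. In CRE, 10 of the 37 were higher, 11 were lower and 16 did not pass an adjusted p of 0.05, adjusted over all 12862 tested genes. The 21 called are 56.8% of the tested members, near the 51.2% called among all tested genes (25.5% higher and 25.7% lower), so the number of calls does not set the Wnt genes apart. The groups did not overlap for 23 of the 37, against 59.6% of all tested genes. The median log2 fold change was 0.08 for the members and 0.005 for all tested genes. Wnt7a, Wnt7b and Axin2 passed the count filter only through their CRE libraries, so they had to differ, and no count or median over the tested members supports a direction. Without these 3 the median over the members was 0.01.

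By role the numbers are small, were not tested against each other, and stand beside the 25.5% higher and 25.7% lower of all tested genes. Among the ligands, 5 of 10 tested were higher, Wnt7a and Wnt7b among them, and 1, Wnt5a, was lower, with a median log2 fold change of 0.65. Without Wnt7a and Wnt7b, which passed the filter only through CRE, 3 of 8 were higher and the median was 0.14. Among the frizzled receptors 2 of 8 were higher and 3 lower (median -0.09). Of the co-receptors 2 of 4 were lower and none higher (median -0.09), and of the secreted antagonists 2 of 5 were lower and none higher (median -0.26). The R-spondin axis had 1 higher and 2 lower of 4 (median -0.25), and the intracellular effectors 2 higher and 1 lower of 6 (median 0.13). Without Axin2, which also passed the filter only through CRE, 1 of 5 effectors was higher and 1 lower, and the median was 0.12.

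**Figure D1:**
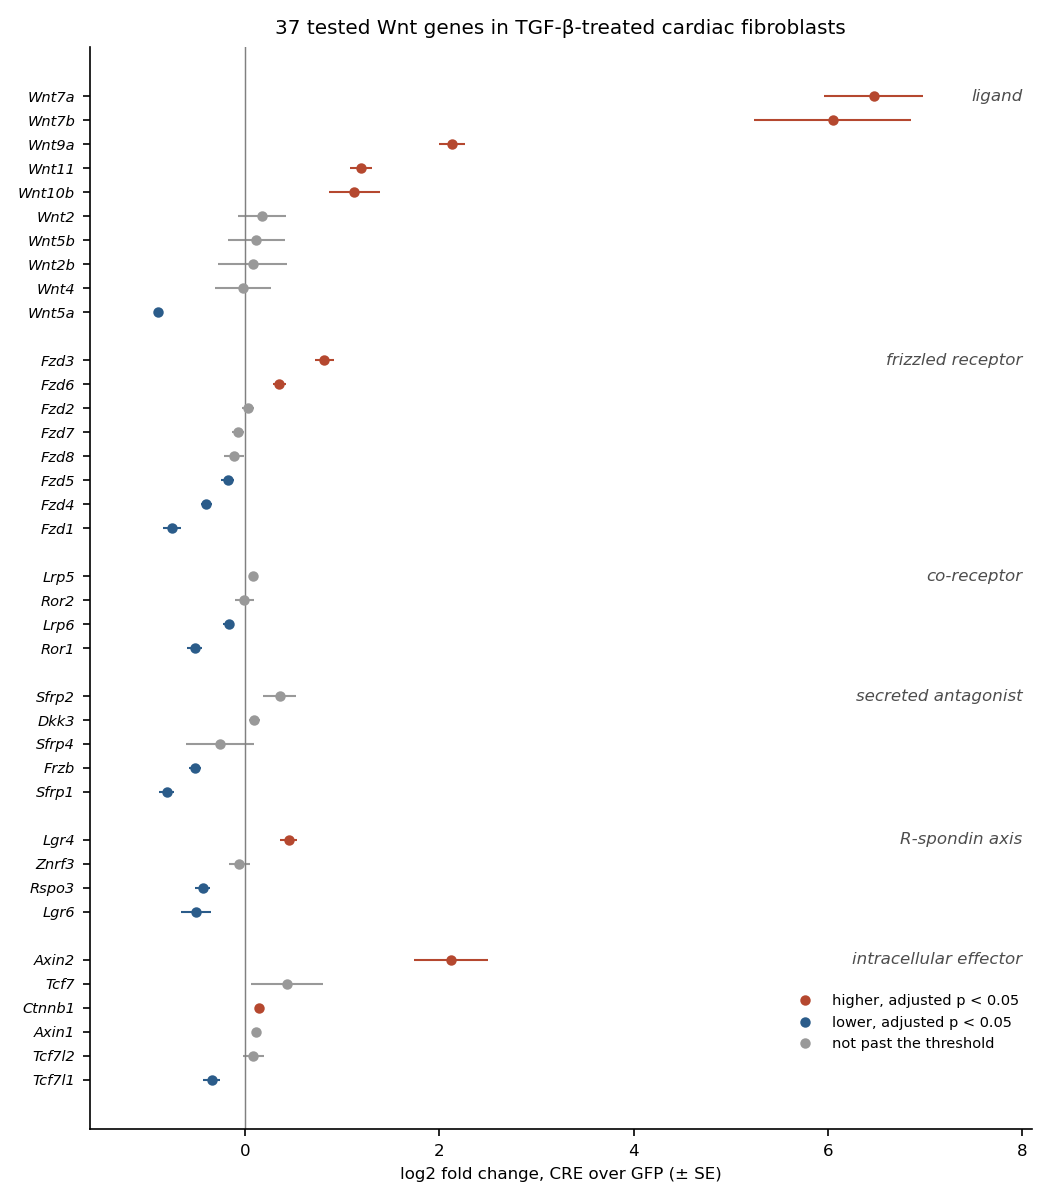
Log2 fold change, CRE over GFP, with its standard error (horizontal bar), for the 37 tested Wnt genes, grouped by role. Red marks the 10 genes higher and blue the 11 lower at an adjusted p under 0.05. The ligands span the widest range, from Wnt5a at -0.89 to Wnt7a and Wnt7b, whose fitted values rest on 2 counts and 1 count over the GFP libraries and are no measure of size.

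The same ligand led in both groups, with a smaller share of the sum in CRE. Wnt5a, a ligand known for β-catenin-independent signalling, made up 75.3%, 73.8% and 76.1% of the summed ligand FPKM in GFP replicates 1 to 3, and 36.3%, 39.2% and 40.7% in those of CRE. It was the highest ligand in both groups on the FPKM scale, with 24.7 ± 0.65 in GFP and 15.2 ± 0.69 in CRE (SD, n = 3). Wnt11 took 13.3% ± 0.58 of the sum in GFP and 28.7% ± 1.59 in CRE, and Wnt9a 4.42% ± 0.81 and 18.0% ± 0.48 (SD, n = 3). Wnt7a went from 0.033% to 3.33%, Wnt10b from 1.61% to 3.34% and Wnt7b from 0.023% to 1.44%. The groups do not overlap for any of these 6 shares, for which 3 libraries against 3 allow no two-sided exact permutation p below 0.1. The sum itself was 32.9 ± 0.65 FPKM in GFP and 39.3 ± 2.57 in CRE (SD, n = 3). Plain FPKM is shifted up in CRE over the table as a whole, with a median log2 ratio of group means of 0.168 over tested genes, and this bears on every sum of FPKM given here.

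These shares depend on the transcript length behind the level. With CPM per kb of the whole GENCODE gene model in place of FPKM, a choice made after the data were seen, Wnt5a kept nearly the same share (75.4% ± 1.35 and 36.8% ± 1.66, SD, n = 3). Wnt11, the ligand for which the scales differed most, took 7.16% in GFP and 14.8% in CRE, and Wnt9a 7.22% and 28.5%. In CRE the order of Wnt11 and Wnt9a therefore turns with the length used, while the direction of each share from GFP to CRE is the same on both scales. Below the first 3 ligands, the FPKM ranges of neighbours in the order mostly overlap. In GFP this holds for Wnt2, Wnt10b, Wnt5b, Wnt2b and Wnt4, all between 0.33 and 0.56 FPKM. In CRE it holds for Wnt7a and Wnt10b (1.32 and 1.31 FPKM), and again for the run of Wnt2, Wnt5b, Wnt7b, Wnt2b and Wnt4.

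**Figure D2:**
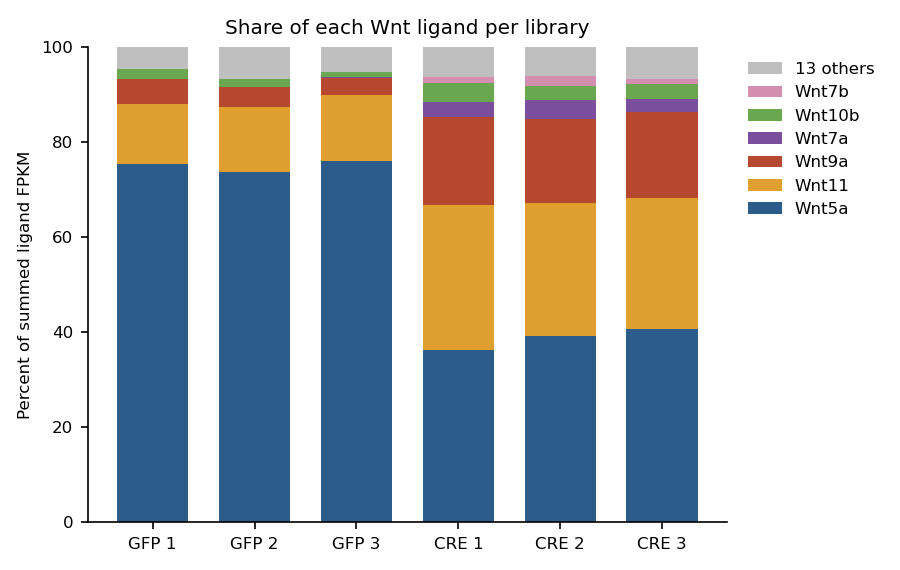
Share of each Wnt ligand in the summed ligand FPKM, in percent, for the 3 GFP and 3 CRE libraries, stacked to 100%. Wnt5a (blue) lies between 73.8% and 76.1% in GFP and between 36.3% and 40.7% in CRE, and the grey block sums the 13 ligands not named.

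Wnt5a was counted 2061, 2178 and 2393 times in GFP and 1247, 1249 and 1252 times in CRE. Every CRE library lay below every GFP library, and the level fell by 0.89 on the log2 scale (SE 0.04, adjusted p = 3.83e-07), to 53.9% of GFP in CPM. The gene lies at chr14:28504750-28527448 (GRCm38, plus strand).

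Wnt9a, expressed in joint and craniofacial development and able to act through β-catenin, was counted 101, 85 and 82 times in GFP and 444, 404 and 390 times in CRE. The groups lie far apart, with a log2 fold change of 2.13 (SE 0.13, adjusted p = 1.13e-06). Wnt11, the other ligand known for planar polarity signalling, was counted 96, 113 and 125 times in GFP and 298, 244 and 258 times in CRE, again without overlap (log2 fold change 1.19, SE 0.11, adjusted p = 1.26e-05). So the best-expressed β-catenin-independent ligands moved in opposite directions, Wnt5a down and Wnt11 up.

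Wnt10b, a ligand known to act through β-catenin and to hold back adipocyte formation, was counted 28, 28 and 19 times in GFP and 71, 49 and 53 times in CRE (log2 fold change 1.13, SE 0.26, adjusted p = 0.0046). Its groups do not overlap either, at counts far below those of Wnt5a. Wnt7a, a ligand of limb and nervous system patterning, was counted once, not at all and once in GFP and 73, 91 and 55 times in CRE (adjusted p = 5.23e-06). Wnt7b, its close relative, was counted once in GFP, in replicate 1, and 26, 48 and 20 times in CRE (adjusted p = 1.48e-04). Both were next to absent from GFP and present in every CRE library. Summed over libraries, the ratio of CRE to GFP was 104 for Wnt7a (95% interval 28.6 to 868) and 89.7 for Wnt7b (15.7 to 3580.4), intervals that cover counting error only. Even in CRE these remained minor transcripts, at 1.32 ± 0.36 FPKM for Wnt7a and 0.57 ± 0.30 for Wnt7b (SD, n = 3).

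**Figure D3:**
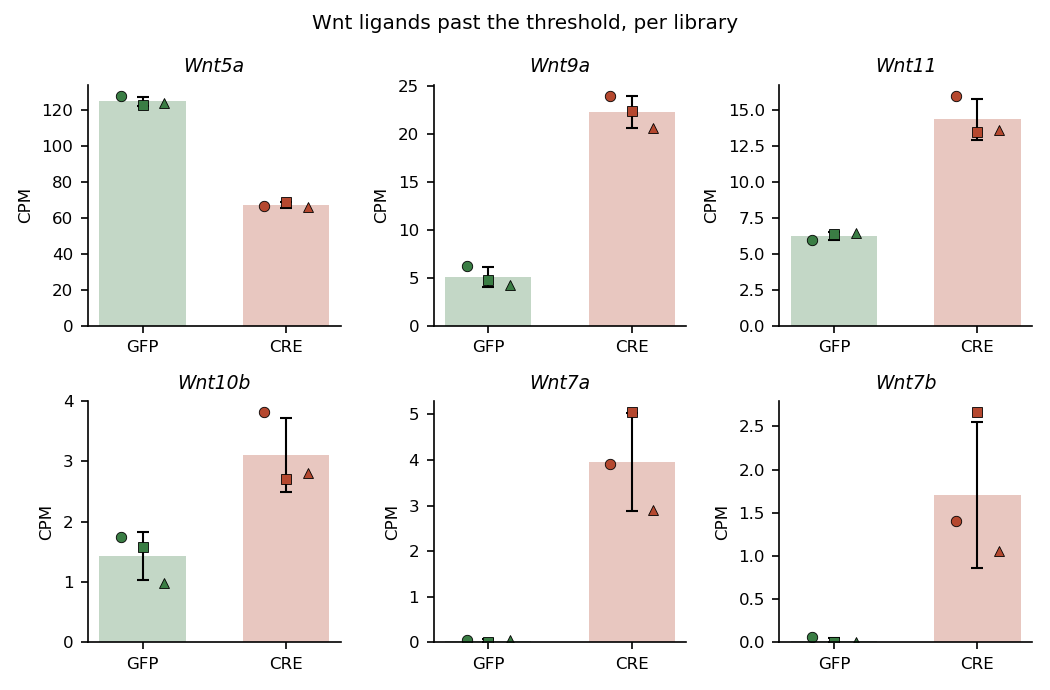
CPM of the 6 Wnt ligands past the threshold, per library (points; circle, square and triangle are replicates 1, 2 and 3), with the group mean (bar) and SD (whisker) of 3 GFP and 3 CRE libraries. Wnt5a is lower in every CRE library, at 66.1 to 69.2 CPM against 123 to 128, and the other 5 are higher in every CRE library.

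Wnt2, Wnt2b, Wnt4 and Wnt5b were tested and did not pass, with 13 to 35 counts in every library and log2 fold changes between -0.02 and 0.18. The 9 ligands that were not tested held at most 11 counts in any library. Wnt1, the founding member of the family, was counted 2, 0 and 1 times in GFP and 7, 10 and 11 times in CRE, a ratio of 8.91 (95% interval 2.75 to 45.8, counting error only). Wnt3 had no count in GFP and 5, 1 and 1 in CRE, so most of its counts came from CRE replicate 1. Wnt3a, Wnt6, Wnt8a, Wnt8b, Wnt10a and Wnt16 held at most 5 counts in a library. Wnt10b and Wnt1 lie 11.706 kb apart on chromosome 15, and their values were higher in CRE together. Wnt9a lies 16.175 kb from Wnt3a on chromosome 11, and Wnt3a held 1 count in all 6 libraries together.

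Promoter sequence was read because TET3 acts on 5-methylcytosine, which in mammals lies mainly in CpG. It is RefSeq sequence of GRCm38.p6, the 250 bases before the annotated start, and 40 of the 59 members had an entry. Over those 40 the median number of CpG was 22.5, against 6 over 27025 promoters of all genes. It was 34 for the 7 higher members with an entry and 16 for the 7 lower ones, and it was 30 for the 9 members not called and 22 for the 17 not tested, as a description with no test. The called members Wnt5a, Sfrp1, Rspo3, Lrp6, Fzd3, Fzd6 and Wnt7b had no entry. The window of the higher gene Ctnnb1, with 35 CpG, lies 4184 bases from its GENCODE start. CpG content did not follow the calls gene by gene: the higher genes Wnt10b and Lgr4 held 14 and 10 CpG, and the lower gene Fzd5 held 32. Wnt9a and Wnt7a, higher ligands with CpG-rich windows, are printed beside Ror1, a lower receptor gene with 8 CpG, to show the range, and capitals mark each CpG. Wnt9a holds 48 CpG (chr11:59306680-59306929, plus strand) and Wnt7a 34 (chr6:91411354-91411603, minus strand), and Ror1 lies at chr4:100095541-100095790 (plus strand).

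Wnt9a: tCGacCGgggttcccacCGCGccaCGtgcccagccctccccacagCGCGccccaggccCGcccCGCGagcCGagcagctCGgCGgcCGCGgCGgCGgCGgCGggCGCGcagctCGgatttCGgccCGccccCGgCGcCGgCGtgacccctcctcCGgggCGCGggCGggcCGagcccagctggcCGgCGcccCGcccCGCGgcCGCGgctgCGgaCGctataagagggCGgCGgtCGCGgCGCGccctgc
Wnt7a: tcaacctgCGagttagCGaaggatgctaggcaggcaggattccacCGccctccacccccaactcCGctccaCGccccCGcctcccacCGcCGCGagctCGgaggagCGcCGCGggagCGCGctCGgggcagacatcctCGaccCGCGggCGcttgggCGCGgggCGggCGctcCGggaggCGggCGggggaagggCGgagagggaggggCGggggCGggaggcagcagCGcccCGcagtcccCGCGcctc
Ror1: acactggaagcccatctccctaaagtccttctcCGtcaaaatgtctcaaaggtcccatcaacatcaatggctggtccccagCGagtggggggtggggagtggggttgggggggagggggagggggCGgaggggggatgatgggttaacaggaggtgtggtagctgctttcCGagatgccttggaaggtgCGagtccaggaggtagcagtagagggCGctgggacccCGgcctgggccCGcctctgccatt

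Methylation was not analysed here. The same windows were searched on both strands for the TCF/LEF motif spelled CTTTGAT or CTTTGAA. It was found in 2 of the 40 member promoters (5.0%), Wnt11 and Dkk1, and in 2079 promoters of all genes (7.7%). The Wnt11 window (chr7:98834862-98835111, plus strand) is printed with the match in capitals, which is CTTTGAT read on the other strand and starts 51 bases before the annotated start. A match is a string of letters and not a shown binding site.

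Wnt11: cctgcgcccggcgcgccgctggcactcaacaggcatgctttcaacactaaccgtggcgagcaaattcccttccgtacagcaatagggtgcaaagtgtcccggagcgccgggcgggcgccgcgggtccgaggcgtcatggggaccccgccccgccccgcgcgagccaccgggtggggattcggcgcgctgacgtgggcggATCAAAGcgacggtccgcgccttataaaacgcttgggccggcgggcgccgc

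Among the frizzled receptors the make-up of the sum moved. The sum itself was 72.9 ± 2.19 FPKM in GFP and 72.3 ± 3.95 in CRE (SD, n = 3). In TMM-scaled CPM per kb of the gene model it was 75.8 ± 2.34 and 66.5 ± 3.24 (SD, n = 3), where every CRE library lay below every GFP library, so whether the sum differs depends on the scale. In GFP, Fzd1 led with 29.6% of that sum, and in CRE it held 20%, beside 20.9% for Fzd2, with overlapping FPKM ranges. Fzd6 went from 12.5% to 18.2%.

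Fzd1 was counted 1376, 1962 and 1777 times in GFP and 970, 1053 and 1165 times in CRE, with GFP replicate 1 the lowest of its group and still above CRE (log2 fold change -0.75, SE 0.09, adjusted p = 9.74e-05). Fzd4, a receptor also known for Norrin signalling in vessels, was counted 943, 1060 and 1132 times in GFP and 786, 793 and 913 times in CRE. In CPM its groups do not overlap (log2 fold change -0.40, SE 0.06, adjusted p = 2.58e-04). Both receptors were thus lower in CRE.

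Fzd3, a receptor known for axon guidance and planar polarity, was counted 214, 190 and 216 times in GFP and 374, 360 and 414 times in CRE, all CRE values above all GFP values (log2 fold change 0.82, SE 0.10, adjusted p = 7.1e-05). Fzd6, its close relative in the same polarity pathway, was counted 707, 701 and 711 times in GFP and 927, 939 and 983 times in CRE, also without overlap (log2 fold change 0.35, SE 0.07, adjusted p = 0.0014). The Fzd3 and Fzd6 pair thus rose where Fzd1 and Fzd4 fell. Fzd5 was counted 499, 616 and 661 times in GFP and 555, 552 and 532 times in CRE, and passed narrowly (log2 fold change -0.18, SE 0.07, adjusted p = 0.0437). Leaving out GFP replicate 2 or 3, or CRE replicate 1, 2 or 3, ended that call, with an adjusted p of 0.126, 0.131, 0.0911, 0.0628 and 0.154, and with library size alone its log2 fold change was -0.017 (adjusted p = 0.839). Fzd2, Fzd7 and Fzd8 did not pass, with log2 fold changes of 0.03, -0.08 and -0.11. Fzd9 and Fzd10 were not tested. Fzd9 was counted 2, 3 and 2 times in GFP and 5, 12 and 11 times in CRE, and Fzd10 1, 1 and 0 times in GFP and 6, 13 and 6 times in CRE (ratio 11.9, 95% interval 2.97 to 104, counting error only).

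Among the co-receptors, Ror1, a receptor tyrosine kinase that binds WNT5A, was counted 461, 560 and 522 times in GFP and 389, 376 and 365 times in CRE. In every CRE library it lay below every GFP library (log2 fold change -0.52, SE 0.08, adjusted p = 2.82e-04). Its relative Ror2 did not pass, at 12.3 ± 0.57 CPM in GFP and 12.2 ± 1.02 in CRE (SD, n = 3). Lrp6, the highest co-receptor on the FPKM scale, was counted 3273, 3945 and 3848 times in GFP and 3336, 3325 and 3660 times in CRE (log2 fold change -0.17, SE 0.05, adjusted p = 0.0223). That call ended without GFP replicate 2 or CRE replicate 1 or 2, with an adjusted p of 0.0784, 0.0915 and 0.0716. With library size alone the log2 fold change of Lrp6 was -0.0066 (adjusted p = 0.923), and with limma on log2(FPKM + 1) it was -0.0065 (adjusted p = 0.932). Lrp5 did not pass (log2 fold change 0.09, adjusted p = 0.135).

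The secreted antagonists were the most abundant extracellular members, at 322 ± 34.4 summed FPKM in GFP and 259 ± 7.81 in CRE, and 336 ± 35.4 and 241 ± 6.21 in TMM-scaled CPM per kb (SD, n = 3). Sfrp1 and Frzb, which bind Wnt proteins through a frizzled-like domain, made up most of that sum and were both lower in CRE. Sfrp1 was counted 9500, 13304 and 13435 times in GFP and 7223, 7390 and 6974 times in CRE. The CRE libraries lie close together and below GFP, where replicate 1 is the lowest (log2 fold change -0.81, SE 0.08, adjusted p = 2.09e-05). Frzb was counted 5576, 7399 and 7442 times in GFP and 5019, 4799 and 5140 times in CRE, with the same GFP library lowest and no overlap (log2 fold change -0.51, SE 0.06, adjusted p = 8.35e-05). In CRE the FPKM ranges of Sfrp1 (94.0 ± 5.19) and Frzb (90.3 ± 0.79, SD, n = 3) overlapped, whereas in GFP Sfrp1 was the higher.

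Dkk3, a divergent Dickkopf that is not a typical inhibitor of LRP6, and Sfrp2 took larger shares of the antagonist sum in CRE (Dkk3 21% against 14.2%, Sfrp2 7.57% against 4.20%) without passing the test. Dkk3 lay at 161 ± 8.27 CPM in GFP and 173 ± 7.79 in CRE (SD, n = 3), with overlap (log2 fold change 0.10, adjusted p = 0.153). Sfrp2 was counted 335, 648 and 568 times in GFP and 586, 780 and 698 times in CRE, and GFP replicate 1 was again the lowest. Its log2 fold change was 0.36 (SE 0.17, adjusted p = 0.11). It was 0.55 without GFP replicate 2 (adjusted p = 0.0163), 0.17 without GFP replicate 1 (0.263) and 0.24 without CRE replicate 2 (0.326). Sfrp2 passed with library size alone (0.52, adjusted p = 0.0256) and with limma on log2(FPKM + 1) (0.51, adjusted p = 0.0472). It also passed with a block for the replicate number (0.38, adjusted p = 0.00352). Sfrp4 held 8 to 12 counts per library and did not pass. Dkk2 was not tested and was counted 16, 9 and 13 times in GFP and 7, 6 and 2 times in CRE. Dkk1 held 3 counts over all libraries, and Wif1 held 4, all in GFP replicate 3.

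Of the R-spondin axis, Rspo3, the R-spondin best known from endothelial and stromal cells, was the only R-spondin well detected. It was counted 1075, 1403 and 1373 times in GFP and 953, 1064 and 958 times in CRE, without overlap in CPM (log2 fold change -0.44, SE 0.08, adjusted p = 8.87e-04). The R-spondin receptors moved in different directions, Lgr6 less firmly. Lgr4 was counted 328, 352 and 347 times in GFP and 453, 460 and 560 times in CRE, all above GFP (log2 fold change 0.45, SE 0.09, adjusted p = 0.00192). Lgr6, the higher of them in FPKM, was counted 909, 1578 and 1318 times in GFP and 780, 1040 and 982 times in CRE. Its groups overlapped (log2 fold change -0.50, SE 0.15, adjusted p = 0.0192), and the call ended without GFP replicate 2 or CRE replicate 1 (adjusted p = 0.06 and 0.0806) and in DESeq2 (0.0631). Lgr5 was not tested, with 1, 1 and 2 counts in GFP and 5, 7 and 9 in CRE. Rspo2 was counted 5, 4 and 5 times in GFP and 1, 0 and 2 times in CRE, a ratio of GFP to CRE of 4.89 (95% interval 1.36 to 26.5, counting error only). Znrf3 did not pass (log2 fold change -0.06), and Rnf43, Rspo1 and Rspo4 held at most 4 counts in a library.

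**Figure D4:**
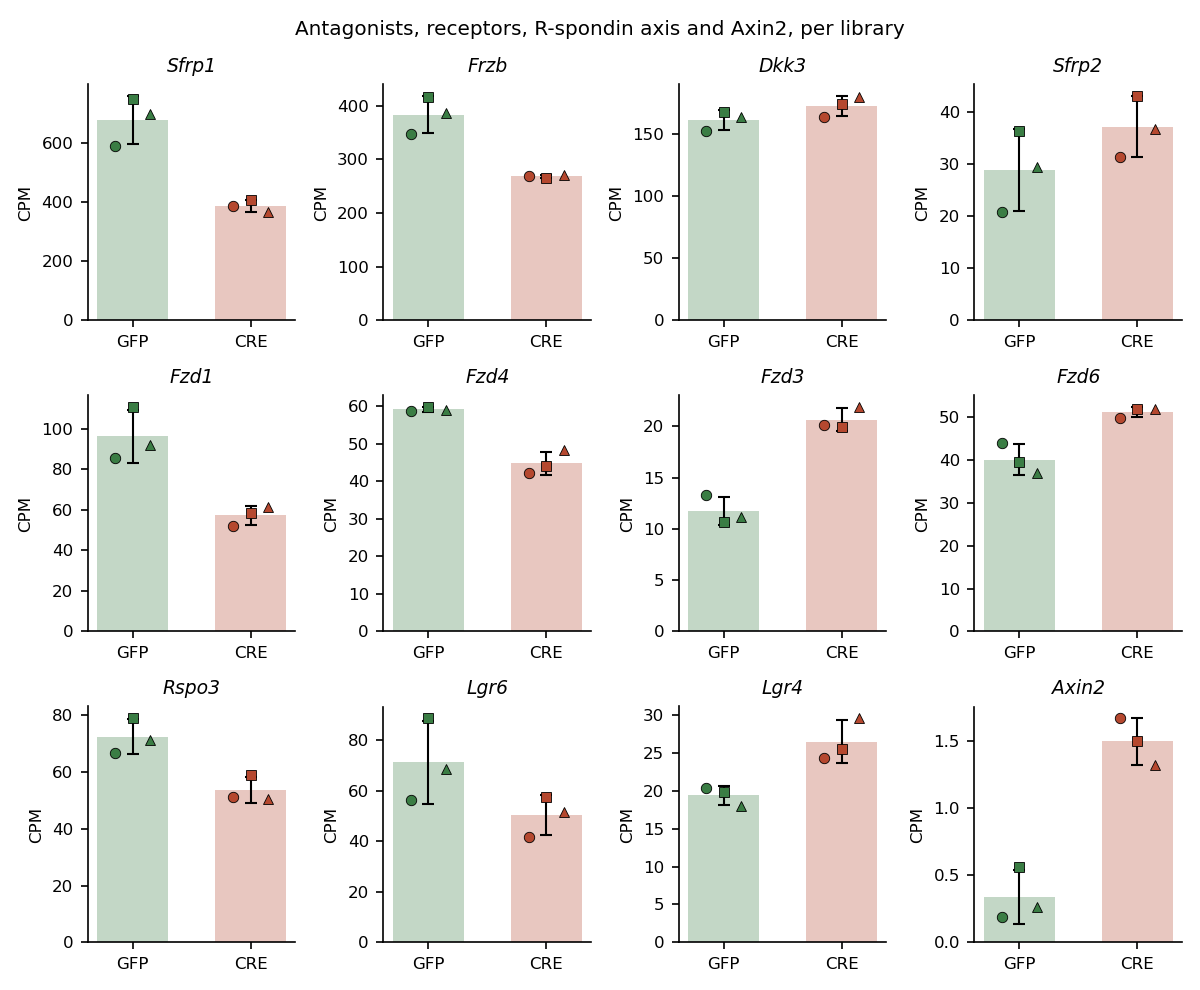
CPM per library (points; circle, square and triangle are replicates 1, 2 and 3) with group mean (bar) and SD (whisker) of 3 GFP and 3 CRE libraries, for antagonists, receptors, the R-spondin axis and Axin2. Sfrp1, Frzb, Fzd1, Fzd4 and Rspo3 are lower and Fzd3, Fzd6, Lgr4 and Axin2 higher in every CRE library, while the groups of Dkk3, Sfrp2 and Lgr6 overlap.

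Among the intracellular effectors, Axin2, a scaffold of the destruction complex and a widely used target gene of β-catenin, was counted 3, 10 and 5 times in GFP and 31, 27 and 25 times in CRE. The groups lie apart (log2 fold change 2.12, SE 0.38, adjusted p = 0.00107), at a low level of 0.10 ± 0.03 FPKM in GFP and 0.52 ± 0.10 in CRE (SD, n = 3). Ctnnb1, which encodes β-catenin, was the highest effector in FPKM and was counted 10953, 11196 and 12667 times in GFP and 13512, 13013 and 13881 times in CRE. The difference was small (log2 fold change 0.15, SE 0.04, adjusted p = 0.0153) and did not pass without GFP replicate 2 (adjusted p = 0.0596). With library size alone, where the median over all tested genes was 0.167, the Ctnnb1 value was 0.31 (adjusted p = 1.41e-04). Tcf7l1, the TCF factor best known as a repressor, was counted 282, 294 and 306 times in GFP and 230, 257 and 243 times in CRE, without overlap (log2 fold change -0.34, SE 0.09, adjusted p = 0.00856). That call ended with library size alone (-0.18, adjusted p = 0.109) and with limma on log2(FPKM + 1) (-0.12, adjusted p = 0.212). Tcf7, Tcf7l2 and Axin1 did not pass, with log2 fold changes of 0.43, 0.08 and 0.12. Lef1 was not tested and was counted 4, 3 and 0 times in GFP and 13, 14 and 10 times in CRE.

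When all genes with at least 1 count were fitted, 19 of the 22 untested members gave a value. Of these 5 were called, all higher in CRE: Wnt1, Lef1, Fzd10, Fzd9 and Lgr5, with log2 fold changes of 3.0, 2.26, 3.35, 1.87 and 2.22 and adjusted p of 0.00705, 0.0166, 0.00766, 0.0315 and 0.0259. Of the 4345 genes outside the count filter, 241 (5.55%) were called in that fit. These 241 were not split by direction here. The 4345 include genes with as little as 1 count, so the 5.55% is no like share for the members. All 5 are rare transcripts, with at most 14 counts in a library.

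Among all tested genes, 990 (7.7%) were called with an absolute log2 fold change of at least 1, and 6 members (16.2% of the tested) were, Wnt9a, Wnt11, Wnt10b, Wnt7a, Wnt7b and Axin2. All 6 were higher in CRE, as were 403 of the 990 (3.13% of all tested genes), and 3 of the 6 passed the count filter only through CRE. Among the 34 tested members left without those 3, only Wnt9a, Wnt11 and Wnt10b were called at that fold. The 16.2% is therefore no fair measure against the 7.7%. With no scaling other than by library size, the median over all tested genes was 0.167 (log2) and the share of higher genes among calls 72.6% in place of 49.8%. This gave 15 members higher and 7 lower in place of 10 and 11. Axin1, Lrp5, Dkk3, Sfrp2 and Fzd2 gained a call as higher, and Tcf7l1, Lgr6, Lrp6 and Fzd5 lost theirs as lower.

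The other genes of the pathway formed a list of 54 outside the members. Of 49 tested, 10 were higher and 15 lower (51.0% called, against 51.2% of all tested genes, of which 25.5% were higher and 25.7% lower), with a median log2 fold change of 0.05. The highest were Daam2 (log2 fold change 1.15, adjusted p = 0.031), which passed the count filter only through CRE and so had to differ, and Prickle2 (0.51, adjusted p = 1.49e-04), known from planar polarity signalling, and Tle4, a TCF co-repressor (0.59, adjusted p = 4.99e-04). The lowest were Gpc3, a cell-surface proteoglycan (-1.47, adjusted p = 2.53e-04), Nkd2, an inhibitor of Dishevelled (-1.41, adjusted p = 1.76e-06), and Tle2, another co-repressor (-0.86, adjusted p = 0.00651). Wls, which carries Wnt proteins to the cell surface, was 635 CPM in GFP and 500 in CRE on average (log2 fold change -0.35), and is named here after its value was seen.

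Textbook target genes of β-catenin were called in both directions. Of 26 listed, 8 of them members, 19 were tested, 4 were higher and 5 lower (47.4% called, near the 51.2% of all tested genes), with a median log2 fold change of -0.08. The higher ones included Axin2, Ccnd1, which encodes cyclin D1 (17.1 ± 1.11 and 50.7 ± 2.35 CPM, SD, n = 3; log2 fold change 1.57, adjusted p = 2.4e-07) and Fosl1 (0.52, adjusted p = 0.0123). The lower ones included Nkd2, Sox9 (37.6 ± 1.38 and 17 ± 0.95 CPM, SD, n = 3; -1.15, adjusted p = 8.03e-07) and Bambi (-0.59, adjusted p = 0.0227). Axin2 and Nkd2 are both feedback inhibitors of the pathway, and Axin2 passed the count filter only through CRE.

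Fewer cells of a type and less RNA per cell cannot be told apart in bulk samples. The counts of markers of other cells stand beside the 25.5% higher and 25.7% lower of all tested genes. Endothelial markers were lower for 13 of 15, from 640 to 696 summed CPM in GFP and from 325 to 350 in CRE, with Cd93 (log2 fold change -2.33), Vwf (-1.74) and Robo4 (-1.71) the lowest. Their part in the lower Fzd4 and Rspo3 was not tested. Macrophage markers were lower for 3 of 6 tested, at 59.1 to 66.6 and 35.1 to 38.5 summed CPM, with Adgre1 the lowest (-1.27), and Cd68, Csf1r and Itgam did not pass. At 50% called, that list is near the 51.2% of all tested genes, but all its calls were lower, where 25.7% of all tested genes were. Smooth muscle and pericyte markers were lower for 5 and higher for 1 (Cspg4) of 10 (60.0% called), at 175 to 194 and 143 to 164 summed CPM.

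Of the epicardial and mesothelial markers 4 of 8 tested were higher, among them the keratin genes Krt19 (log2 fold change 1.79) and Krt18 (1.65) and the uroplakin gene Upk1b (1.34), while Wt1 (-2.11) and Tbx18 (-0.85) were lower, at 86.1 to 90.3 and 56.6 to 59.5 summed CPM. The 3 named higher markers stayed below 2.3 CPM on average. Their part in the higher Wnt7a and Wnt7b, which are of similarly low level, was not tested. Cardiomyocyte markers were near absent, at 0.958 to 1.3 and 2.0 to 3.06 summed CPM. Myh6 had no count. Nppb alone was tested, and it passed the count filter only through CRE and so had to be higher, at 0.112 CPM in GFP and 1.12 in CRE on average.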

How the data were processed

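RNA-seq was performed on 6 libraries, 3 per group, with groups and replicate numbers read from the titles. The study's methods state that reads were trimmed with Trimmomatic, aligned to GRCm38 with HISAT2 and counted with HTSeq-count. Tool versions and the strand setting are not given in the sources used here. Exons of Wnt5a, Wnt7b, Wnt11, Fzd5, Fzd6, Sfrp2, Rspo3, Ctnnb1, Axin2, Tcf7l1 and Lef1 overlap a gene on the other strand, so these counts could hold its reads. The labels and the methods name different extraction and library kits, so neither is given here. The authors deposited raw counts per gene, not normalized, and FPKM values per library (Cufflinks) with their group means. Their fold changes, p-values and false discovery rates were not used.

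Counts were tested in R 4.3.3 with edgeR 4.0.16 (two-sided quasi-likelihood test, TMM scaling, filterByExpr with a minimum count of 10 and a minimum total of 15), adjusted by the Benjamini-Hochberg method over 12862 genes of the whole table. Scaling factors were 0.944 to 0.947 in GFP and 1.05 to 1.06 in CRE. The SE is the absolute log2 fold change over the square root of F. The fit was also run on simulated data in which few genes changed, unlike here, so that run does not bear on the scaling. Alternatives were 2 other size factors, library size alone, other filters, DESeq2 1.42.0, limma 3.58.1 (log2(FPKM + 1), and voom), a block for the replicate number, and each library left out. No replicate pair agreed within counting error (chi-square over its degrees of freedom, 3.94 to 11.7).

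Coordinates and gene lengths are from GENCODE M21 (59 of 59 members and 21973 of 22063 genes found). Members were chosen by symbol. Counts and statistics are given for called members with a mean of at least 5 CPM or an absolute log2 fold change of at least 1, and for other members by values or ranges. From each of 9 lists, up to 3 higher and 3 lower genes are named. The result of 1 list is not reported here. The members and lists were chosen with earlier results of these data known. Figures were drawn with matplotlib 3.10.9.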

Additional observations from a re-analysis of the deposited data

How the results depend on the processing

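Of the 21 called members, 16 kept their direction and their call in all 15 alternative fits that could test them. The other 5 were Ctnnb1, Tcf7l1, Lgr6, Lrp6 and Fzd5. Members higher in CRE numbered 7 (at least 10 counts in every library) to 15 (library size alone, limma on log2(FPKM + 1) and no filter), and 11 to 13 with a library left out. Members lower in CRE numbered 7 with library size alone and 7 with limma on log2(FPKM + 1), against 11. Under those settings the median over all genes was 0.167 and 0.135 (log2). In both Tcf7l1, Lgr6, Lrp6 and Fzd5 lost their call, with an adjusted p of 0.109, 0.0825, 0.923 and 0.839 in the first and 0.212, 0.166, 0.932 and 0.851 in the second. Axin1, Lrp5, Dkk3, Sfrp2 and Fzd2 gained a call in both.

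Same-numbered libraries deviated together with correlations of 0.046, 0.18 and -0.018, where the 0.18 of replicate 2 was the highest of any pair. GFP replicate 1 correlated best with CRE replicate 3. These values cannot settle whether the replicate numbers pair the libraries. With the number as a replicate block, 11 members were higher and 10 lower. Sfrp2 passed (log2 fold change 0.38, adjusted p = 0.00352) and Fzd5 did not (adjusted p = 0.0516).

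Some members that did not pass the test changed sign. With library size alone the log2 fold change was 0.15 for Ror2, 0.05 for Fzd8, 0.11 for Znrf3, 0.14 for Wnt4 and 0.085 for Fzd7. With limma on log2(FPKM + 1) it was 0.11, 0.043, 0.095, 0.043 and 0.075 for the same genes. Upper-quartile scaling gave 0.012 for Ror2, limma-voom 0.019 for Wnt4 and the block 0.0058 for Wnt4. With a library left out the range was -0.0074 to 0.17 for Tcf7l2, -0.07 to 0.33 for Wnt5b, -0.054 to 0.061 for Ror2, -0.16 to 0.34 for Wnt2b, -0.14 to 0.011 for Znrf3 and -0.25 to 0.17 for Wnt4. The cause was not tested. The 22 untested members held at most 16 counts in a library, and for those at 0 the floor of 3 counts is the limit.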
